A study of Mus musculus with 12 samples.

Results

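Polycomb repressive complex 2 (PRC2) was followed in mouse hair follicle stem cells (HFSCs) through 10 of its subunit genes. They were Eed, Ezh1, Ezh2, Suz12, Rbbp4 and Rbbp7 of the core complex and Jarid2, Aebp2, Mtf2 and Phf19 among the accessory subunits. The genes were chosen by name and matched by symbol in the deposited tables, and all 10 were present among 17885 genes in the Eed iKO table and among 21915 in the hair cycle table. HFSCs were sorted from back skin of C57BL/6J mice of both sexes by CD34 and high α6-integrin, within EpCAM+ and without Sca1+ cells, and RNA was sequenced in 12 libraries, 3 for each of 4 groups. The study counts its hair cycle animals in a way that may exceed these libraries, and whether animals were pooled is not given in the sources used here, so a hair cycle library may stand for more than 1 animal. Eed iKO mice carried K15-CrePGR and Eed fl/fl (given as Eed -/- in the labels), and RU-486 at 10 mg/ml was applied to their skin once a day for 7 days, starting at P19 or P50 according to the labels, with cells taken at P70. Their controls, labelled wildtype, were also taken at P70 and per the methods received ethanol in place of RU-486, so genotype and RU-486 cannot be told apart. The Cre of this line is driven by the K15 promoter in the bulge, and RU-486 is needed to activate it. In the study, the schedule with skin collected at P70 starts at P50, in a resting phase of the follicle. The start for the sequenced animals is not stated separately. The other groups were wildtype HFSCs at P28-30 (anagen, the growth phase of the follicle) and at P50-52 (telogen, its resting phase), so phase and age change together there.

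PRC2 methylates histone H3 at lysine 27, a mark of repressed developmental genes. EZH1 and EZH2 are its alternative catalytic subunits, EED reads the mark and stimulates the enzyme, SUZ12 holds the complex together, and RBBP4 and RBBP7 are histone-binding proteins. JARID2 and AEBP2 join one form of the complex, while the Polycomb-like proteins PHF1, MTF2 and PHF19 join the other. EZH2 is generally tied to dividing cells and EZH1 to resting ones, and HFSCs pass between these states with every hair cycle.

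The unit of both tables is the read count of a gene divided by the size factor of its library, here called the normalized count. Whole reads could be recovered from the Eed iKO table, 33269583 to 57063586 per library, whereas that of the hair cycle table gave no depth. Each table was scaled and tested separately, by limma after taking log2(normalized count + 1), which shrinks the changes of low genes. HFSC markers were present in all 12 libraries. Telogen replicate 1 was low in Krt15, a bulge keratin, at 142406 normalized counts against 350444 and 416765 in the other telogen libraries. Other HFSC markers were mixed. Cd34 was lower there, at 6433 against 9159 and 8295, and Lhx2 was higher, at 11217 against 7877 and 7593. Over all genes tested, its mean correlation with its own group was 0.915, beside 0.918 and 0.923 for telogen replicates 2 and 3. Member calls that change without telogen replicate 1, and the places of Ezh1 and Ezh2 in the order of levels, are given both ways. Interfollicular epidermis markers, summed over 7 genes, reached 76551 in control replicate 3 and 95350 in Eed iKO replicate 3 against 8501 to 24848 in the other libraries of that table.

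Eed, the targeted gene, was examined first. It had normalized counts of 1084, 1249 and 950.2 in the libraries labelled control and of 933, 1361 and 1001 in those labelled Eed iKO. The groups overlapped, and 2 of the 3 libraries labelled Eed iKO lay inside or above the control range. The log2 fold change was -0.01 (SE 0.22, 95% interval -0.48 to 0.47, adjusted p = 0.993), so the interval of the fold ran from 0.716 to 1.39. A lower Eed level was thus not detected in the libraries labelled Eed iKO, though the interval leaves room for a modest one, and each direction given for them rests on the labels. The study also measured Eed by RT-qPCR and H3K27me3 by staining, and neither was analysed here. A value summed over the whole gene does not show loss of part of the transcript, which was not tested.

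The remaining core subunits showed no call either. Ezh1 stood at 5060.5, 6623 and 5917 in control and at 5113, 4675 and 5290.2 in the libraries labelled Eed iKO, a log2 fold change of -0.22 (SE 0.15, 95% interval -0.54 to 0.11, adjusted p = 0.516). Ezh2 stood at 1774, 1911 and 1391 in control and at 1853, 1549.8 and 1365 in Eed iKO. In both genes for the catalytic subunits the libraries of the groups interleaved. Suz12 measured 4264, 3349 and 3010.3 in control and 4224, 3671 and 3414 in Eed iKO. Rbbp4 measured 4138, 2776 and 2271 in control and 2921, 2798 and 1959 in Eed iKO, and Rbbp7 measured 4485, 3892 and 3339 in control and 4843, 5093 and 3763 in Eed iKO. Rbbp7 was above every control library in 2 of the 3 libraries labelled Eed iKO, but its log2 fold change of 0.22 (SE 0.17, adjusted p = 0.574) did not pass the test.

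The accessory subunits were as close between the groups. Jarid2, which helps PRC2 bind chromatin, gave 1911, 2017 and 1706 in control and 2117, 1660.0 and 1797 in the libraries labelled Eed iKO. Aebp2, its partner subunit, gave 5139.6, 4668 and 3907 in control and 4056, 4769 and 4039.6 in Eed iKO. Their log2 fold changes were -0.02 (SE 0.17) and -0.09 (SE 0.15). Mtf2, a Polycomb-like protein, gave 1437, 1532 and 1509 in control and 1843, 1876 and 1456 in Eed iKO, or 0.20 on the log2 scale (SE 0.17, adjusted p = 0.630). Phf19, of the same family, was the lowest member, with 7.63, 118 and 48.1 in control and 32.3, 25.2 and 30.6 in Eed iKO. Its control libraries spread over both sides of the Eed iKO values, and its interval of -2.32 to 1.74 on the log2 scale was by far the widest of the 10.

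In all, 0 of the 10 members passed an adjusted p under 0.05 in limma in the libraries labelled Eed iKO, where 0.0267% of the 15008 genes tested did. The count was also 0 at an unadjusted p under 0.05, against 14.7% of all genes, 0 by the thresholds of the methods (a log2 fold change over 1.5 either way with an unadjusted p under 0.05), against 1.75%, and 0 by edgeR and by DESeq2 on the recovered reads. The normalized counts overlapped between the groups for every member, whereas 20.2% of all genes tested did not overlap. The median log2 fold change of the members was -0.05, beside -0.00 over all genes. Leaving out Phf19, the 95% intervals of the other 9 lay between -0.76 and 0.60.

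**Figure D1:**
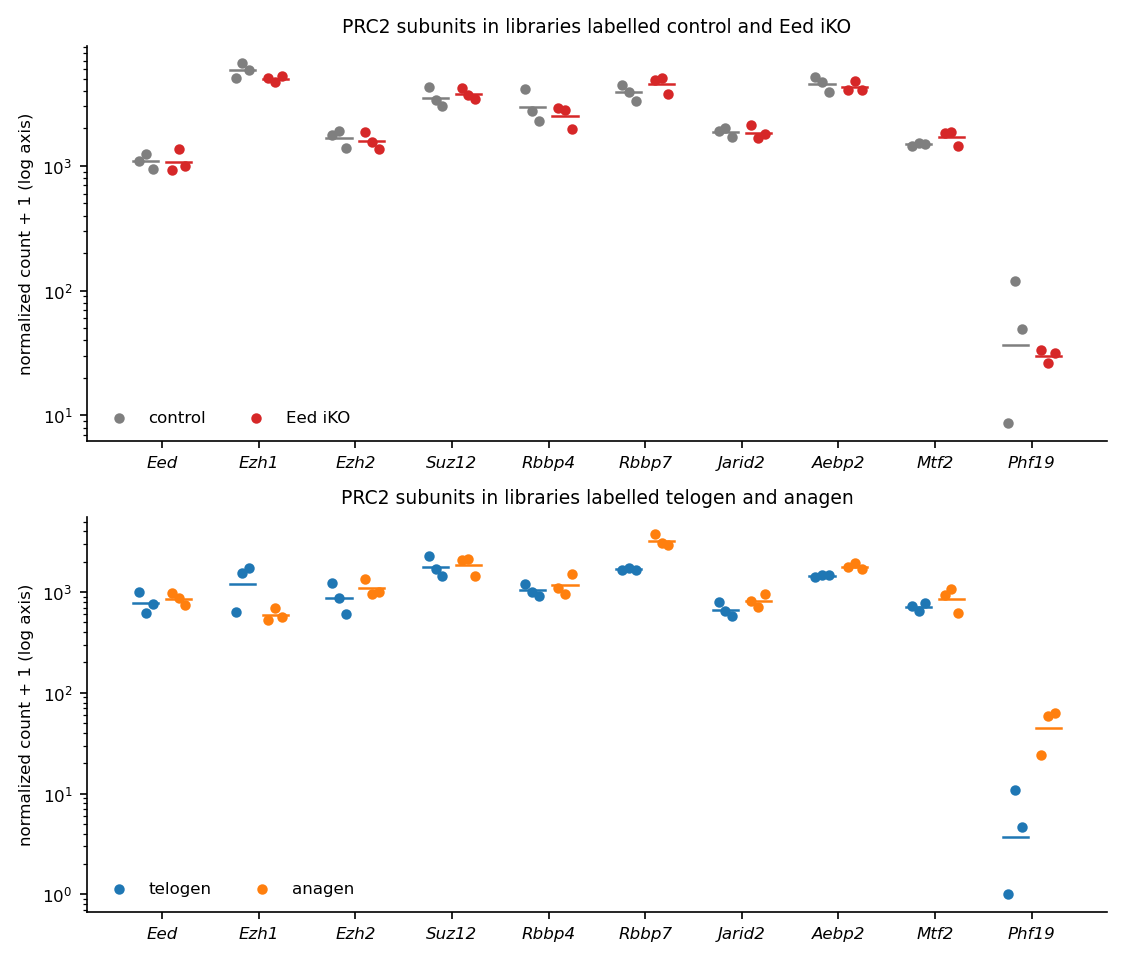
Normalized counts plus 1 (log axis) of the 10 PRC2 subunit genes in each library, with the 3 libraries of a group as points and their mean on the log scale as a bar; the top panel shows control and Eed iKO, the bottom panel telogen and anagen, and the panels are normalized separately. The groups overlap for every gene in the top panel, while Rbbp7, Aebp2 and Phf19 separate in the bottom panel.

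From telogen to anagen, 2 members rose, namely Rbbp7 and Phf19, and 0 fell. This was 2 of 10 members, where 11.6% of the 13457 genes tested were called, 7.22% higher and 4.35% lower in anagen. Rbbp7 stood at 1664, 1742 and 1653 in telogen and at 3717, 3095 and 2912 in anagen. Every anagen library lay above every telogen library, and the telogen values were within 100 of each other. The means were 1686 ± 48.6 and 3241 ± 422 (SD, n = 3 each), a log2 fold change of 0.93 (SE 0.18, 95% interval 0.54 to 1.33, adjusted p = 0.00786), or 1.91-fold. Without anagen replicate 1 the value was 0.83 and the adjusted p was 0.0660, and limma without an intensity trend gave an adjusted p of 0.0601. In sorted populations, a change in the share of cells that express a gene and a change in RNA per cell cannot be told apart.

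Phf19 was listed at 0 in telogen replicate 1 and had 9.85 and 3.64 normalized counts in telogen replicates 2 and 3. In anagen it had 23.1, 57.5 and 61.8, so all anagen libraries were above all telogen libraries, at a low level. The log2 fold change was 3.59 (SE 0.92, 95% interval 1.57 to 5.62, adjusted p = 0.0300), and Phf19 alone among the members passed the thresholds of the methods, a log2 fold change over 2 with an unadjusted p under 0.05, which 3.33% of all genes passed upward. The size and the call depended on the settings. With a pseudocount of 0.1 the log2 fold change was 4.81 with an adjusted p of 0.0730. The call was also lost without telogen replicate 3 (adjusted p = 0.0562), without anagen replicate 1 (0.0697), 2 (0.126) or 3 (0.117), and without an intensity trend (0.0659), and without telogen replicate 1 it held at a log2 fold change of 2.65 (adjusted p = 0.0486). Phf1, the other Polycomb-like gene, gave 69.7, 8.89 and 68.3 in telogen and 12.6, 13.4 and 24.0 in anagen and was not called (adjusted p = 0.405).

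Ezh1 had the largest negative value among the members, and its call turned on 1 library. Its normalized counts were 635, 1526 and 1739.6 in telogen and 527, 698 and 567 in anagen. Telogen replicate 1 lay between the anagen libraries, while the other telogen libraries were above all of them. The log2 fold change was -1.004 (SE 0.34, 95% interval -1.76 to -0.25) with an adjusted p of 0.0848. Without telogen replicate 1, the library low in Krt15, it was -1.46 with an adjusted p of 0.00206, and 3 members were then called.

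Ezh2 gave 1219, 876 and 602 in telogen and 1351, 952 and 991 in anagen. The highest value was in anagen and the lowest in telogen, but the groups interleaved, and the log2 fold change of 0.33 (SE 0.28, 95% interval -0.28 to 0.94, adjusted p = 0.478) did not pass. The value rested on single libraries, from 0.07 without telogen replicate 3 to 0.58 without telogen replicate 1 (adjusted p = 0.895 and 0.169).

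The other core subunits changed less than their spread. Eed gave 1008, 621 and 758 in telogen and 970.2, 865 and 749.7 in anagen. Suz12 gave 2275, 1687 and 1443 in telogen and 2054, 2138 and 1435 in anagen, and Rbbp4 gave 1208, 1009 and 917 in telogen and 1104, 964 and 1497 in anagen. Their log2 fold changes were 0.14 (SE 0.24), 0.06 (SE 0.24) and 0.17 (SE 0.23), with adjusted p of 0.755, 0.889 and 0.669.

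Among the accessory subunits, Aebp2 separated without a call. It gave 1409, 1464 and 1463 in telogen and 1753, 1924 and 1688 in anagen, all above telogen, with a log2 fold change of 0.31 (SE 0.18, 95% interval -0.09 to 0.70, adjusted p = 0.299). With Rbbp7 and Phf19 this made 3 members whose groups did not overlap, all higher in anagen, where 33.3% of all genes did not overlap and 18.1% did so with anagen higher. Jarid2 gave 797, 641 and 583 in telogen and 811, 717 and 948 in anagen. Mtf2 gave 719.8, 645 and 782 in telogen and 942, 1075 and 618 in anagen. Both overlapped, at log2 fold changes of 0.30 (SE 0.23, adjusted p = 0.434) and 0.26 (SE 0.25, adjusted p = 0.536). The median log2 fold change over the 10 members was 0.28, beside 0.01 over all genes, and 9 of the 10 values were positive, beside 50.6% of all genes.

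**Figure D2:**
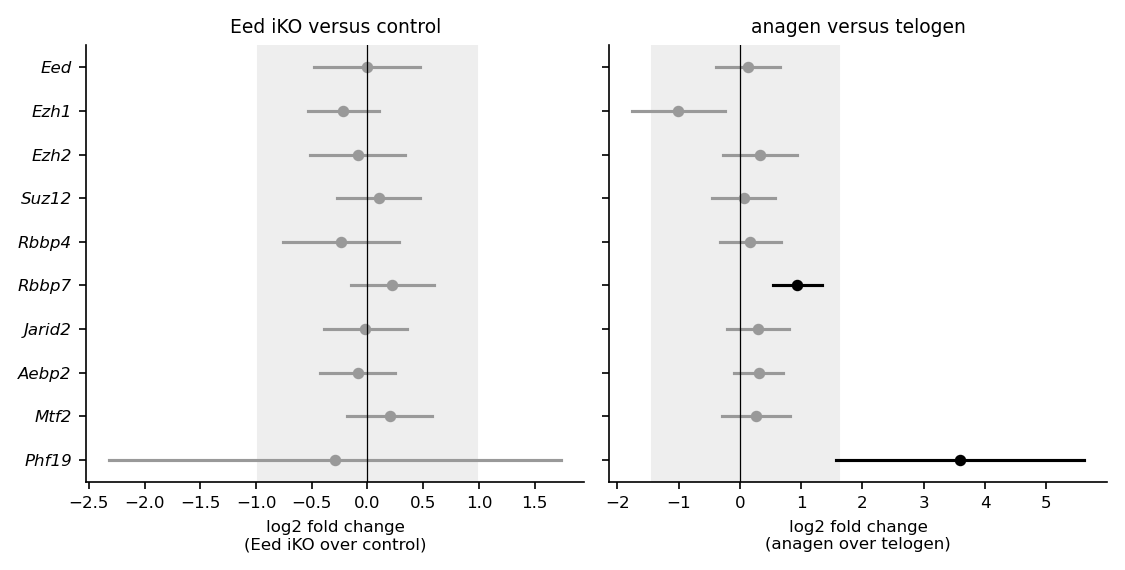
Log2 fold change of each member (points) with its 95% interval from limma (lines) for Eed iKO over control (left) and anagen over telogen (right), black where the adjusted p was under 0.05, with the grey band running from the 5th to the 95th percentile of all genes tested. On the left every interval includes 0, and on the right those of Rbbp7 and Phf19 lie above 0 in black while that of Ezh1 lies below 0 in grey.

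The promoters of the members were searched for words of cell cycle control. RefSeq (GRCm38.p6) gave 14 promoters for the 10 members, each with 250 bases before and 50 after the start. An E2F word (TTTCCCGC, TTTCGCGC, TTTGCCGC or TTTGGCGC, on either strand) was present for 3 members, Phf19, Suz12 and Ezh2, where 2.60% of all genes in that table held one. Each E2F word holds the letters CG. The promoters of Phf19, Suz12 and Ezh2 held CG 38, 41 and 31 times, beside a median of 7 over all promoters. The share of all genes was not matched for this. A CCAAT word was found for 8 members (41.1% of all genes) and the CHR word TTTGAA for 4 (20.2%). The stretches below lie before the start and outside the gene as annotated by GENCODE, and show both members that rose, Suz12 as a member with an E2F word that did not, and Ezh1. Capitals mark E2F and CCAAT words on either strand.
Rbbp7, chrX:162760122-162760371, plus strand: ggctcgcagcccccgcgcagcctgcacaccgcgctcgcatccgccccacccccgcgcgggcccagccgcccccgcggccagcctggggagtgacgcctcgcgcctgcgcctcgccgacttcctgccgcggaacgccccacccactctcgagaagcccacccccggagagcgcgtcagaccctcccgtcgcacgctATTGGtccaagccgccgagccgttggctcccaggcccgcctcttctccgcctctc
Phf19, chr2:34914027-34914226, minus strand: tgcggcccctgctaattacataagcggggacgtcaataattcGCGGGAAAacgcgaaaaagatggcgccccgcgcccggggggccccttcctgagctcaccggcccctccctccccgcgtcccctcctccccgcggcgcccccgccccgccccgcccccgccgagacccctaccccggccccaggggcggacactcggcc
Suz12, chr11:79992856-79993105, plus strand: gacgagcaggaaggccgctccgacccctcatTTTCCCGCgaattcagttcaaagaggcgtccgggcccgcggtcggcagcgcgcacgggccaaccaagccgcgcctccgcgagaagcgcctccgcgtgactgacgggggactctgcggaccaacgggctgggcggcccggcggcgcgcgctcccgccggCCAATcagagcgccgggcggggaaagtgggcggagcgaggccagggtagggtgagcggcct
Ezh1, chr11:101226464-101226713, minus strand: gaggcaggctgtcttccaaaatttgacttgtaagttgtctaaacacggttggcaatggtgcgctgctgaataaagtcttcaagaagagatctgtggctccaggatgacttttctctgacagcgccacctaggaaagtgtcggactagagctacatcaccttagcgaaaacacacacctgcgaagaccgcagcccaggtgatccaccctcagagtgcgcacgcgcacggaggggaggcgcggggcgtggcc
The E2F word of Phf19 began 208 bases before the start and that of Suz12 began 219 bases before it, whereas that of Ezh2 began 3 bases after it. Of these members, Phf19 alone was called in anagen. The Phf19 stretch stops 50 bases short of the RefSeq start, which lies inside the annotated gene. Rbbp7 held CCAAT words, one of them across the start and so not shown whole, and no E2F word, and Ezh1 held none of the words searched. A match is a description of letters and no evidence of binding.

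The ratio of paralogs within a library needs no scaling between libraries and is given as a description, with no test. The log2 ratio of Ezh2 to Ezh1 normalized counts was -1.51, -1.79 and -2.09 in control and -1.46, -1.59 and -1.95 in the libraries labelled Eed iKO. All 6 libraries from P70 held fewer counts of Ezh2 than of Ezh1, also per kilobase of transcript, and the groups overlapped. In telogen the ratio was 0.94, -0.80 and -1.53, and in anagen it was 1.36, 0.45 and 0.81. Telogen replicates 2 and 3 lay below all anagen libraries, and telogen replicate 1 fell within the anagen range. Where the ratio crosses 0 depends on length, since Ezh1 transcripts are the longer ones. Per kilobase of mean transcript length, all 3 anagen libraries and 2 of 3 telogen libraries had more Ezh2 than Ezh1, and with the longest transcript or the union of exons 1 of 3 telogen libraries did. The means differed by 1.33 with all libraries, by 2.03 without telogen replicate 1 and by 0.80 without telogen replicate 3.

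For the histone-binding pair, the log2 ratio of Rbbp4 to Rbbp7 was -0.12, -0.49 and -0.56 in control and -0.73, -0.86 and -0.94 in Eed iKO. It was -0.46, -0.79 and -0.85 in telogen and -1.75, -1.68 and -0.96 in anagen. Rbbp7 counts exceeded Rbbp4 counts in all 12 libraries, and the groups did not overlap in either table. The gap between neighbouring libraries of the groups was small in both. The mean difference was -0.46 in the first and -0.76 in the second. Of single genes tested, 20.2% were without overlap between control and Eed iKO, and 33.3% between telogen and anagen. How often ratios of 2 genes separate in this way was not counted. Neither Rbbp4 nor Rbbp7 was called in the libraries labelled Eed iKO. Both share part of their sequence with other genes, as given below, so their ratio is less certain. Mtf2 exceeded Phf19 in every library, by a log2 ratio of 3.69 to 7.38 in control, 5.53 to 6.16 in Eed iKO, 5.90 to 9.49 in telogen and 3.30 to 5.29 in anagen, with a pseudocount of 1 and one telogen library at 0 for Phf19.

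**Figure D3:**
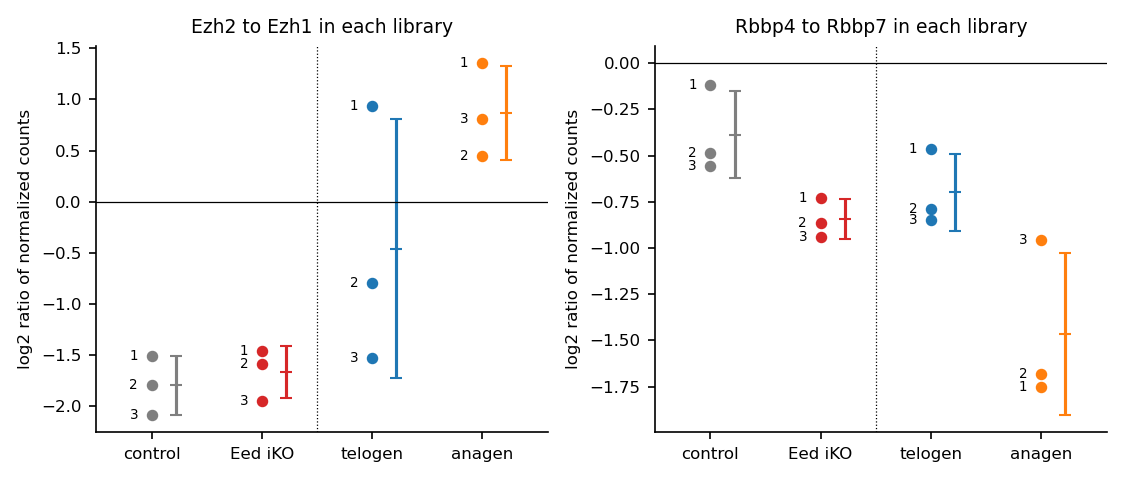
Log2 ratio of the normalized counts of Ezh2 to Ezh1 (left) and of Rbbp4 to Rbbp7 (right) in each library, with points numbered by replicate, crossbars for the mean and SD (n = 3) beside them and a dotted line between the separately normalized tables. Telogen replicate 1 lies at 0.94 in the left panel, among the anagen libraries, and the anagen libraries lie below the telogen libraries in the right panel.

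Levels of different genes were compared per kilobase of mean annotated coding transcript length. Rbbp7 was highest in all 4 groups, at 2780 ± 408 normalized counts per kilobase in control, 3250 ± 503 in Eed iKO, 1200 ± 34.6 in telogen and 2307 ± 300.1 in anagen (SD, n = 3 each). Its libraries did not overlap those of the gene next in order in any group. Phf19 was last throughout, at 28.3 ± 27.3, 14.4 ± 1.80, 2.20 ± 2.43 and 23.2 ± 10.4 in the same order. These end places held with the longest transcript and with the union of exons as the length, whereas the middle of the order did not.

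Between these ends, most neighbours overlapped. In control the order was Aebp2, Ezh1, Rbbp4, Mtf2, Ezh2, Eed, Suz12 and Jarid2, and the libraries of neighbours were apart only between Rbbp4 and Mtf2. In telogen it was Eed, Aebp2, Ezh2, Mtf2, Rbbp4, Suz12, Ezh1 and Jarid2, with every neighbour overlapping the next. In the libraries labelled Eed iKO, Aebp2 was apart from Ezh1 below it. In anagen, Jarid2 was apart from Ezh1, which was at place 9 of 10 there. Ezh1 was at place 3 in control, at 1462 ± 195.0 per kilobase, and at place 8 in telogen, at 324 ± 146. Without telogen replicate 1 its telogen mean was 407 and its place 5, Ezh2 moved from place 4 to 7, and with all libraries the longest transcript and the union of exons put Ezh1 at places 5 and 4. Both are wildtype HFSCs of different ages from tables normalized separately, so the values are set side by side with no test.

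**Figure D4:**
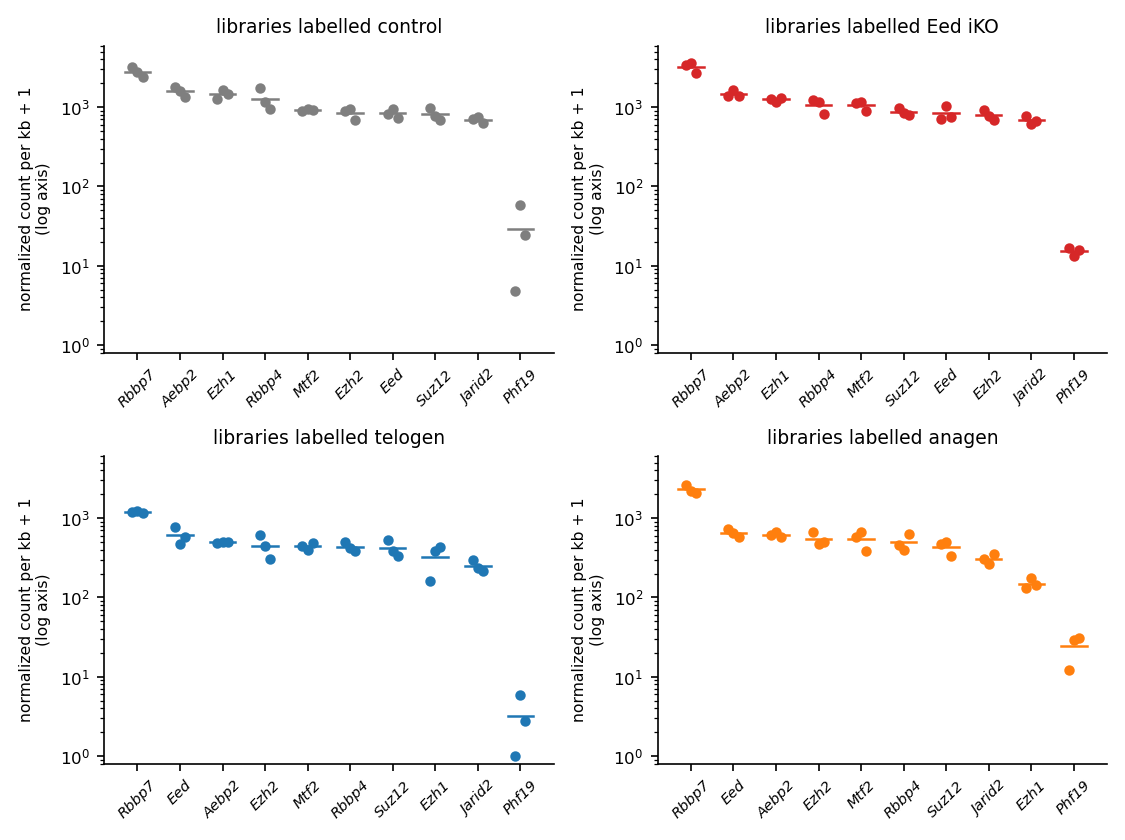
Normalized counts per kilobase of mean coding transcript length, plus 1 (log axis), for the members in each group, ordered by the group mean (bars) with the 3 libraries as points. Rbbp7 is first and Phf19 last in all 4 panels, and Ezh1 stands at place 3 in control and at place 9 in anagen.

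Other genes tied to PRC2 were read in the same tables. Of 7 other PRC2-associated genes, 6 were in each table, and 0 passed in either comparison in limma. At an unadjusted p under 0.05 the counts were 1 in the libraries labelled Eed iKO, where 14.7% of all genes passed, and 0 in anagen, where 27.3% did. Those with the smallest p were Elob, an elongin subunit (log2 fold change 0.84, adjusted p = 0.148), and Epop (0.72, 0.339) in Eed iKO, and Lcorl (0.51, 0.238) and Phf1 (-1.10, 0.405) in anagen. Of these, DESeq2 on the recovered reads called Elob higher in Eed iKO, as did limma with replicate number as a block, and edgeR called 0. DESeq2 and the block each called more genes over the whole table than the main limma fit. Kdm6a and Kdm6b encode the demethylases that remove the PRC2 mark. Their log2 fold changes were -0.37 and -0.23 in Eed iKO and -0.27 and 0.38 in anagen. Neither passed in limma in either comparison. Neither passed in edgeR or DESeq2 in Eed iKO, and these were not run for anagen. At an unadjusted p under 0.05 in limma, 1 of the pair passed in Eed iKO and 0 did in anagen.

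RBBP4 and RBBP7 also serve in chromatin complexes outside PRC2, and 15 such partners were tested. In anagen 3 of the 15 rose and 0 fell, where 7.22% of all genes rose, with a median of 0.38 over the list. Chaf1b, a subunit of the chromatin assembly factor that loads histones at replication, rose from 30.6 ± 13.6 to 344 ± 46.1 normalized counts (log2 fold change 3.53, SE 0.42, adjusted p = 0.000457). Hat1, the acetyltransferase that partners RBBP7 on new histone H4, rose from 449.8 ± 35.3 to 1295 ± 315 (1.498, SE 0.24, adjusted p = 0.00270), and Chaf1a rose from 214 ± 160.2 to 677 ± 118 (1.98, SE 0.51, adjusted p = 0.0312). The call of Chaf1a was lost when any 1 anagen library was left out and without an intensity trend. Hdac1, a deacetylase, was low in telogen replicate 1, at 441 against 1453 and 1181, and it was called higher in anagen when either that library or telogen replicate 2 was left out. In the libraries labelled Eed iKO, 0 of the 15 passed in limma or edgeR and 4 had an unadjusted p under 0.05, against 14.7% of all genes. Mbd2 (0.78, adjusted p = 0.0899) and Mbd3 (0.86, adjusted p = 0.0917) were nearest. DESeq2 called both higher, as did limma with replicate number as a block and limma without Eed iKO replicate 3. Each of these settings called more genes over the whole table than the main fit.

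Proliferation genes gave a scale for the change in cell cycle RNA between the phases, and cell division itself was not measured here. All 17 rose in anagen, with a median log2 fold change of 2.75 and a range of 1.30 to 6.64, against 11.6% of all genes called. Their summed normalized counts were 4435 to 6022 in telogen and 29469 to 48159 in anagen. Mki67, the Ki67 antigen, had a log2 fold change of 5.10 (SE 0.23), Top2a of 4.92 (SE 0.36), Bub1b of 6.64 (SE 0.54) and Mcm5, a replicative helicase subunit, of 3.86 (SE 0.33). The number called fell from 17 to 14 without an intensity trend and without telogen replicate 2 or anagen replicate 1 or 2. By the thresholds of the methods 12 passed. The values of Rbbp7, at 0.93, and of Ezh2, at 0.33, were below the lowest of the 17, while Phf19 lay within their range. Of 11 E2F factors and pocket proteins, which control cell cycle transcription, 4 rose and 0 fell in anagen, where 7.22% of all genes rose: E2f8 (5.04), E2f1 (3.13), E2f2 (2.43) and E2f3 (2.34). The call of E2f2 was lost without anagen replicate 1. In the libraries labelled Eed iKO, 0 of the 17 and 0 of the 11 passed in limma or edgeR. Of the 17 proliferation values there, 16 were positive, with a median log2 fold change of 0.72, beside -0.00 over all genes. Of the 11 E2F and pocket protein values, 5 were positive, with a median of -0.0015. The thresholds of the methods called Cdk1 (1.80) and E2f1 (2.17) higher, where 1.75% of all genes passed either way. At an unadjusted p under 0.05 in limma, 5 of the 17 and 2 of the 11 passed, where 14.7% of all genes did. The count of 5 turned on single libraries. It was 11 without Eed iKO replicate 3, where limma called 188 genes in all, among them Mki67 and Top2a, both higher. It was 1 without Eed iKO replicate 1, 2 without Eed iKO replicate 2, and 3 without control replicate 1 or 2. The share of all genes was not counted for these settings. The proliferation sums in the libraries labelled Eed iKO were 25017, 27160 and 15140 against 12623 to 15374 in control. DESeq2, which called more genes over the whole table than limma, called Cdk1, Rrm2 and E2f1 higher. With replicate number as a block, limma also called more genes, and Rrm2, Top2a and E2f1 were among those higher.

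**Figure D5:**
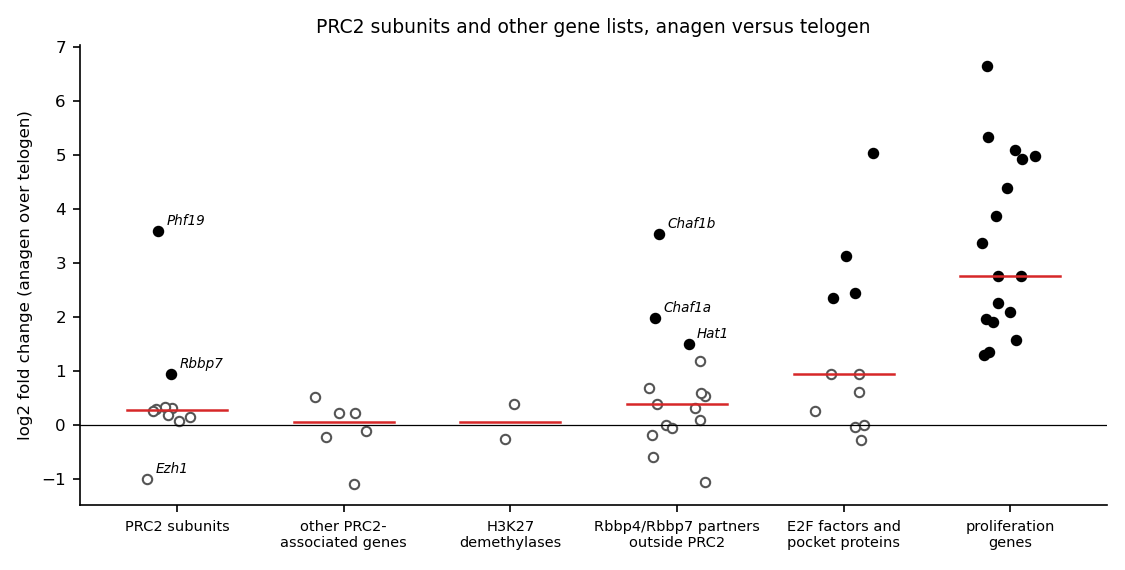
Log2 fold change of anagen over telogen for each tested gene of 6 lists, filled where the adjusted p was under 0.05 and open where it was not, with the list median as a red line. All 17 proliferation genes are filled, against 2 of the 10 PRC2 subunits and 3 of the 15 partners of Rbbp4 and Rbbp7.

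Markers of other cells moved with the hair cycle in part, where 11.6% of all genes were called. Melanocyte markers summed over 6 genes came to 108 to 159.6 in telogen and to 441 to 811 in anagen, and 1 of 4 tested, Dct, a pigment enzyme, rose with a log2 fold change of 2.51 (adjusted p = 0.00187). Of 3 dermal fibroblast markers tested, Col1a1 rose (2.06), and the sums overlapped. The other values in that list were negative, at -0.997 and -1.02, without a call. Of 10 HFSC markers, Itga6 rose (0.97) and Cd34 fell by 1.21 on the log2 scale, both of which encode antigens of the sort. Of 9 hair germ and matrix markers Krt25 rose and Msx2 fell. The calls of Itga6 and Krt25 were lost without anagen replicate 1 or 2 and that of Col1a1 without anagen replicate 3, and without telogen replicate 1 the hair germ list had 3 that rose and 1 that fell and the fibroblast list 2 and 1. None of 7 interfollicular and 6 immune markers tested passed in limma (1 and 0 at an unadjusted p under 0.05, against 27.3% of all genes), and Lyz2 and the endothelial marker Cdh5 were listed at 0 in all telogen libraries. In the libraries labelled Eed iKO, 0 of these markers passed in the main limma fit, edgeR or DESeq2. At an unadjusted p under 0.05 in limma, 3 of 10 HFSC, 1 of 9 hair germ and 2 of 6 immune markers passed. Of the others, 1 of 5 melanocyte, 1 of 3 fibroblast, 0 of 7 interfollicular and 0 of 2 endothelial markers did, against 14.7% of all genes. The groups did not overlap for 6 of 10 HFSC markers, against 20.2% of all genes, and for 0, 1 or 2 markers in each other list. Of the 6, Itga6, Lhx2 and Krt15 were higher in Eed iKO, and Nfatc1, Tcf7l1 and Lgr5 were lower. Cd207, a Langerhans cell marker, was called higher there by limma without an intensity trend. The thresholds of the methods called Cd207, H2-Ab1 and Tyrp1 higher, where 1.75% of all genes passed either way. Cd207 and Tyrp1 were low. Cd207 was at 0 in every control library and at 18.3, 13.3 and 23.7 in Eed iKO. Tyrp1 was at 0 in control replicates 1 and 3 and at 17.2, 25.2 and 16.8 in Eed iKO. Of the markers tested there, 4 of 6 immune and 4 of 5 melanocyte values were positive. H2-Aa (-0.25), Cd3e (-0.48) and Dct (-0.21) were negative. The part of these markers in the values of Rbbp7, Phf19 and Ezh1 was not tested.

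The positions and the shared sequence of the members bear on their counts. In GRCm38, the core subunits Eed (ENSMUSG00000030619.9), Ezh1, Ezh2, Suz12, Rbbp4 and Rbbp7 lie at chr7:89954654-89980983, chr11:101191115-101226463, chr6:47530139-47595341, chr11:79993106-80034123, chr4:129307100-129335370 and chrX:162760402-162779092. Jarid2, Aebp2, Mtf2 and Phf19 lie at chr13:44729474-44921643, chr6:140622663-140678472, chr5:108065674-108109004 and chr2:34893757-34914026. The share of 31-base words of their exons and transcripts that also occur in transcripts of another gene was 0 for Phf19, 0.507% for Ezh1 and 2.18% for Ezh2. It was 16.5% for Rbbp7, mostly through Gm6382, and 22.0% for Rbbp4, spread over several genes of which the overlapping lincRNA Gm26722 shared the most, so reads of these could be split between genes and their values are less certain. Eed shared 7.61%, mainly with E230029C05Rik on the opposite strand.

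Over the 6 hair cycle libraries, the genes whose log2 values ran closest to Ezh2 were Hip1r (Pearson r = 0.993), Fkbp3 (0.988), Dnajc2 (0.985), Sinhcaf (0.982) and Twf2 (0.977). Those closest to Ezh1 were Fbxo36 (0.997), Abcd4 (0.989), Rab11fip4 (0.982), Setd1b (0.982) and Glb1l2 (0.981). These are descriptions over 6 points from 2 groups, picked as the highest of 13457 genes, and each Ezh1 neighbour shared its low value in telogen replicate 1. Fbxo36, for example, stood at 35.7, 70.4 and 78.7 in telogen and at 32.4, 41.0 and 35.7 in anagen.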

How the data were processed

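RNA of sorted HFSCs was measured in 12 libraries, grouped by their GEO labels, and the labels do not tie same-numbered libraries to a litter or a batch. The study describes biological replicates from at least 2 litters for Eed iKO and control, and p-values measure the spread between these libraries. Per the labels and methods, RNA was amplified before library preparation and the authors aligned reads to Gencode vM20 transcripts with kallisto (0.42.5; build mm10). The deposited signal is a read count scaled by DESeq2 size factors, restricted to protein-coding genes for Eed iKO. The authors' own fold changes and p-values, also in the files, were not used.

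The members, lists and tests were chosen with earlier results of these data known. Genes were filtered with filterByExpr of edgeR (4.0.16; count minimum 10), which all 10 members passed, and tested with limma (3.58.1) on log2(normalized count + 1) with an intensity trend, two-sided, with Benjamini-Hochberg adjustment over all genes tested. The design had named edgeR for whole counts, and since both tables hold normalized values limma was used. Whole multiples of 1 step accounted for 100% of the Eed iKO values (tolerance 0.1), so edgeR and DESeq2 (1.42.0) were also run on these reads. For the hair cycle table the share was 41.2% to 51.3%, and no reads were recovered. A call is an adjusted p under 0.05. The thresholds of the methods were a log2 fold change over 1.5 (Eed iKO) or 2 (hair cycle) with an unadjusted p under 0.05. All 10 members were named, with up to 4 called genes of each list by smallest p, or the 2 with the smallest p where none was called. Lengths, coordinates and shared words came from GENCODE vM21 (GRCm38) and promoters from RefSeq. The functions were tested on simulated data.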

Additional observations from a re-analysis of the deposited data

How the results depend on the processing

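Alternatives were set for each comparison: a pseudocount of 0.1, no filter, TMM scaling, the replicate block, no intensity trend, the thresholds of the methods, each library left out, and, for the Eed iKO table alone, edgeR and DESeq2 on recovered reads. The last 2 were not run for the hair cycle table, whose reads could not be recovered. With 1 library left out, the spread was pooled over the remaining 5.

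In the libraries labelled Eed iKO, the main limma fit called 4 of the 15008 genes tested. The number moved to 263 with the thresholds of the methods, 424 with the replicate block and 2 without the trend. It was 673 with DESeq2 on the same genes, and 1 to 188 with a library left out, highest without Eed iKO replicate 3. No member was called under any of these. Of 130 log2 fold changes of members recomputed under 13 alternatives, 116 kept their direction and 14 changed sign, none called. Eed changed sign with edgeR (0.0049) and DESeq2 (0.0025). With a library left out, Eed ranged from -0.17 to 0.10, Ezh2 from -0.22 to 0.0151, Suz12 from -0.00942 to 0.24, Rbbp4 from -0.43 to 0.00553, Jarid2 from -0.12 to 0.0585, Aebp2 from -0.20 to 0.00158 and Phf19 from -1.34 to 0.55.

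From telogen to anagen, the number of genes called moved from 1556 to 686 with the thresholds of the methods, 842 without the trend and 590 to 1534 with a library left out. Called members went from 2 to 1 with the thresholds of the methods (Phf19), 1 with a pseudocount of 0.1 (Rbbp7), 0 without the trend, and 0 (without anagen replicate 1) to 3 (without telogen replicate 1) with a library left out. Of 110 values under 11 alternatives, 96 kept direction and call, 8 lost the call, 1 gained it and 5 changed sign. Eed ranged from -0.0286 to 0.32, Suz12 from -0.0850 to 0.24 and Rbbp4 from -0.00829 to 0.31 with a library left out, and Ezh2, which kept its sign, from 0.07 to 0.58.

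Correlations of the deviations of same-numbered libraries were 0.0390, 0.0684 and 0.193 in the Eed iKO table. In the hair cycle table they were -0.0348, -0.0711 and -0.0294. Those of differently numbered libraries ran from -0.145 to 0.0769 and from -0.0167 to 0.0554. The replicate 3 libraries of the Eed iKO table, which also held its highest interfollicular sums, thus lay above every differently numbered pair. What they shared was not tested. The labels give no pairing, so the main fit had no block. With the replicate block, 1224 genes and 2 members were called in the hair cycle table.

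With the longest transcript as the length, 5, 4, 4 and 4 of 10 members kept their place in the order of levels in control, Eed iKO, telogen and anagen, and with the union of exons 3, 7, 3 and 4 did. Without telogen replicate 1, an alternative chosen after seeing the data, 6 of 10 kept their place in telogen. Low counts limit Phf19 in both tables, and unknown depth limits the hair cycle values.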
